A study of Mus musculus with 4 samples.

Results

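PRDM14 was induced in mouse J1 embryonic stem cells that carried a scramble control, and the array of these cells was compared with the array of scramble cells without induction. The comparison takes 2 of the 4 samples of the series. The log2 signal of the scramble array was subtracted from that of the array labelled scramble with PRDM14 for every probe set annotated to 1 gene. The table gave 17097 genes, with the probe set of highest average signal standing for a gene that has several. Of these, 10366 reached a log2 signal of 5.40, which is the median signal of the named probe sets, on at least 1 of the 2 arrays, and these are the genes past the filter. The account centres on 54 gene lists, here called programmes, that hold 981 of the genes past the filter.

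J1 is an established embryonic stem cell line, grown here without feeder cells in serum-containing medium with LIF. The labels name the cells iP14 and give −/+ Dox, so that the cells labelled with PRDM14 had received doxycycline and those without had not. No cells given doxycycline without PRDM14 are used here, and the agent and PRDM14 cannot be told apart. How long PRDM14 was induced and how many clones were used is not given in the sources used here. The scramble sample is also described as wild type in its source label. The other pair of the series carried a knockdown of Tet1 and Tet2, without and with PRDM14, and is used below only for values side by side. Each condition was represented by 1 array, so no difference has a replicate check, no p-value is given, and precision is limited by the number of arrays. As a technical yardstick, probe sets of 1 gene spread around their mean difference with a pooled SD of 0.219, which covers neither cultures nor arrays.

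PRDM14 is a zinc finger protein with a PR domain that is found in pluripotent cells and in primordial germ cells. In embryonic stem cells it is known to bind DNA, to recruit Polycomb repressive complexes and to hold down de novo DNA methyltransferases and FGF signalling. The series asked how TET1 and TET2, enzymes that oxidise methylated cytosine, take part in gene regulation by PRDM14.

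The pluripotent identity named in the labels was matched by its defining transcripts on both arrays. Pou5f1 (OCT4) read 11.14 without and 11.35 with PRDM14, Sox2 read 11.74 and 11.71, and Zfp42 (REX1) read 12.21 and 12.26. Among markers of other cell types, the fibroblast genes Col1a1, Col3a1, Thy1 and Pdgfrb, the trophectoderm factors Cdx2 and Elf5 and the endoderm factors Gata4 and Sox17 were below the filter on both. Of the whole lists, 7 of 21 fibroblast, 11 of 19 trophectoderm, 10 of 18 primitive endoderm and 6 of 21 neuroectoderm markers passed it. The trophectoderm markers had a median of −0.08, with 2 at least 2-fold lower. The 6 neuroectoderm markers had a median of 0.59, with 4 above 0 and 2 below, and 3 at least 1.5-fold higher. That median was 0.011 over the 21 with no filter. Here and below, a pair of values gives the log2 signal first without and then with PRDM14, in scramble cells unless knockdown cells are named. The Prdm14 probe set itself read 4.53 and 4.83, under the filter, so that it could not check the induction label. Tet1 was not analysed here. Each direction below therefore rests on the labels, and because the samples are bulk cultures, fewer cells of a type and less RNA per cell cannot be told apart.

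Signals were distributed alike on the 4 arrays, with medians from 5.09 to 5.11. Of the 113 higher genes counted below, the scramble array read lowest of the 4 in 94 and the array labelled with PRDM14 read highest in 93. Of the 104 lower genes, the scramble array read highest in 83 and the array labelled with PRDM14 read lowest in 88. Choosing genes by the difference of these 2 arrays favours such extremes on both. In several programmes the scramble array differed from the other 3 together, and the comparison cannot be made without it. For some of those programmes the number of members with their extreme on it is given below, and others are not marked. Among the unmarked ones, it read lowest in 7 of 10 primitive endoderm markers and 7 of 13 YAP and TEAD genes. It read highest in 13 of 22 p53 targets. Over all genes the share was 30.1% for the highest and 30.9% for the lowest reading. The part of that array in the results was not tested.

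In all, 113 genes differed by 2-fold or more towards the array labelled with PRDM14 (1.09%) and 104 away from it (1.00%). At 1.5-fold the counts were 444 higher (4.28%) and 405 lower (3.91%). The median over all genes past the filter was 0.002, with 5228 genes above 0 and 5132 below it. Calls were found at every signal level, from 1.74% of the genes in the second quartile of level to 2.39% in the highest. Chromosome medians lay between −0.03 and 0.03, and the share called ran from 1.02% on chromosome 9 to 4.40% on the X chromosome, with 10 genes higher and 5 lower there. Of the called genes, 40 higher and 29 lower ones stood on a programme list.

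**Figure D1:**
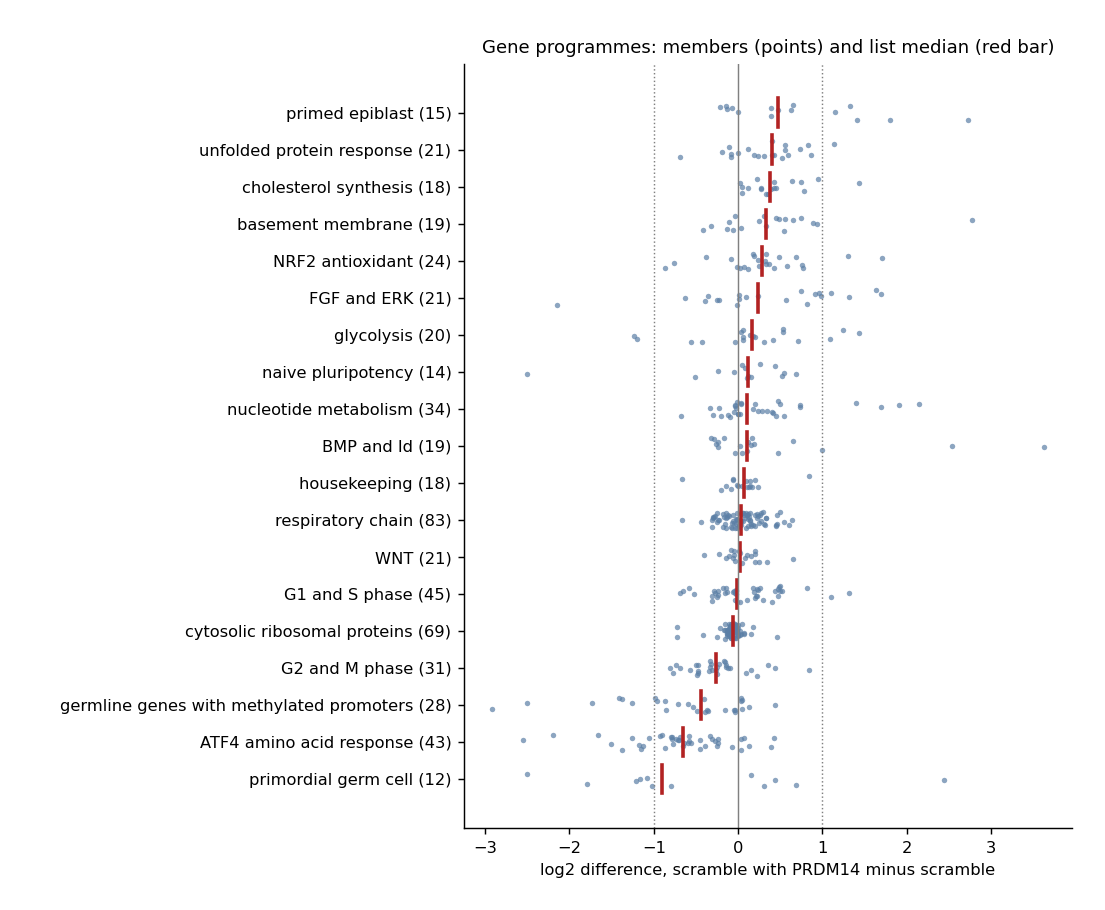
Log2 difference, scramble with PRDM14 minus scramble, for the members past the filter (points) of 19 gene programmes, with the number of members in brackets, the list median as a red bar and 2-fold limits as dotted lines. The medians of primordial germ cell, ATF4 and germline programmes lie furthest left at −0.90, −0.66 and −0.44, while those of the primed epiblast, unfolded protein response and cholesterol lists lie furthest right at 0.47, 0.40 and 0.37.

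Among programmes with 20 or more members past the filter, the amino acid response governed by ATF4 had the lowest median. ATF4 is a transcription factor whose protein is made when translation initiation is slowed by amino acid shortage or other stresses. It is known to act with C/EBP partners on genes for amino acid synthesis and uptake, for tRNA charging and for the stress factors CHOP and TRIB3. Of 43 members past the filter, 37 were below 0, 24 were at least 1.5-fold lower (55.8%) and 10 at least 2-fold lower, and 0 were 1.5-fold higher. The median log2 difference was −0.66, and −0.62 over the 46 members in the table with no filter. Over the second probe sets of 20 members it was −0.35, with 17 below 0.

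The transcription factors of the programme came first in size. Nupr1, a small chromatin-associated stress protein, read 7.96 without and 5.41 with PRDM14, 5.85-fold lower. Its second probe set differed by −3.69. Ddit3, which encodes CHOP, read 6.96 and 5.70, and Atf4 itself read 10.03 and 9.47. Cebpb, a C/EBP partner, read 7.60 and 5.40, but its second probe set read 5.82 and 5.79, so its 2 probe sets did not give the same picture. Jdp2 passed 2-fold at −1.13 only because it read 4.46 on the array labelled with PRDM14, and raising low values to the filter left −0.19. All 8 genes past the filter that are listed under transcription factors were below 0. That group also holds Trib3, which is not itself a transcription factor. Atf5 at −0.58, Trib3 at −0.73 and Cebpg at −0.39 were among the smaller differences.

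Genes listed under amino acid synthesis, a group that also holds Pck2 and Chac1, showed the same direction in 10 of 12 members, with a median of −0.86. The serine pathway was represented at each of its steps. Phgdh, the first enzyme, read 8.73 and 8.08, and its second probe set read 7.92 and 6.45. Psat1, the aminotransferase that follows, read 10.39 and 8.73, 3.15-fold lower, and the phosphatase Psph read 8.70 and 7.53. Shmt2, which passes the serine carbon to mitochondrial folate, differed by −0.93. Asns, the asparagine synthetase that is a standard reporter of this response, read 10.66 and 9.29, and Pck2, a mitochondrial enzyme that makes phosphoenolpyruvate, read 6.74 and 5.22. Chac1, a glutathione-degrading enzyme, read 8.03 and 6.88. Cth, the cystathionine gamma-lyase, differed by 0.43 in the other direction.

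Transfer RNA synthetases, which load amino acids on tRNA, were below 0 in 9 of 10 members, with a median of −0.59. Aars, for alanine, read 10.34 and 9.28, and its second probe set gave the same difference of −1.06. Sars, for serine, differed by −0.86 and Iars, for isoleucine, by −0.79. Nars, for asparagine, is not counted in the programme because its listed symbol was not matched, and it was picked out after its values were seen: it read 10.98 and 9.93. Wars, for tryptophan, was the member above 0, at 0.12. Among transporters, the heavy chain Slc3a2 differed by −0.90 and its partner Slc7a5 by −0.71, while Slc7a3 differed by 0.39.

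Promoters of 2 of these lower genes are shown because each holds the composite element that ATF4 and C/EBP proteins are known to bind. The element was searched as TGATGNAAT on both strands of windows reaching from 250 bases before to 50 bases after each start in RefSeq's GRCm38.p6 annotation. A match was present in 4 of 42 promoters of 34 programme genes (9.52%), against 0.965% of all 32851 promoters and 0.476% of 10718 promoters of genes past the filter. The 250 bases before the start are printed 5′ to 3′ on the gene's strand, with the match in capitals. It starts at −111 relative to the start of Nupr1 (chr7:126625471-126625720, minus strand) and at −113 relative to that of Aars (chr8:111033592-111033841, plus strand). A match is a description and does not show binding.
Nupr1: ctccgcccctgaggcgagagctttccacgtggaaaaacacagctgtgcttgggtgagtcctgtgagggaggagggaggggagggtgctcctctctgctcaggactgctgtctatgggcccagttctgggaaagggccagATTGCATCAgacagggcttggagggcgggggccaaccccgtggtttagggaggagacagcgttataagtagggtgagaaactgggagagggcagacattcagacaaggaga
Aars: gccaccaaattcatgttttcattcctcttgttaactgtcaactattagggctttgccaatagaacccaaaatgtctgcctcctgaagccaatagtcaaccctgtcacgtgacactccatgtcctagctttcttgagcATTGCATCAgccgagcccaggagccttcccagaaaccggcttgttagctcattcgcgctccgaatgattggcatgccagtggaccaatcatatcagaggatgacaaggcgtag

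On all 4 arrays, the scramble array carried the highest reading in 37 of the 43 members (86.0%). Asns read 9.78 in knockdown cells and 9.13 after PRDM14 induction there, against 10.66 and 9.29 in scramble cells. Psat1 read 8.94 and 8.65 there, and Nupr1 read 5.87 and 5.61. The scramble value is thus the highest for most members. The array labelled scramble with PRDM14 was the lowest of 4 in 22 members (51.2%), against 26.4% of all genes. Its median difference from the knockdown array was −0.12. In the knockdown pair, which shares neither array with the scramble pair, the median was −0.03. The knockdown array minus the scramble array had a median of −0.49, and this value uses the same scramble array.

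**Figure D2:**
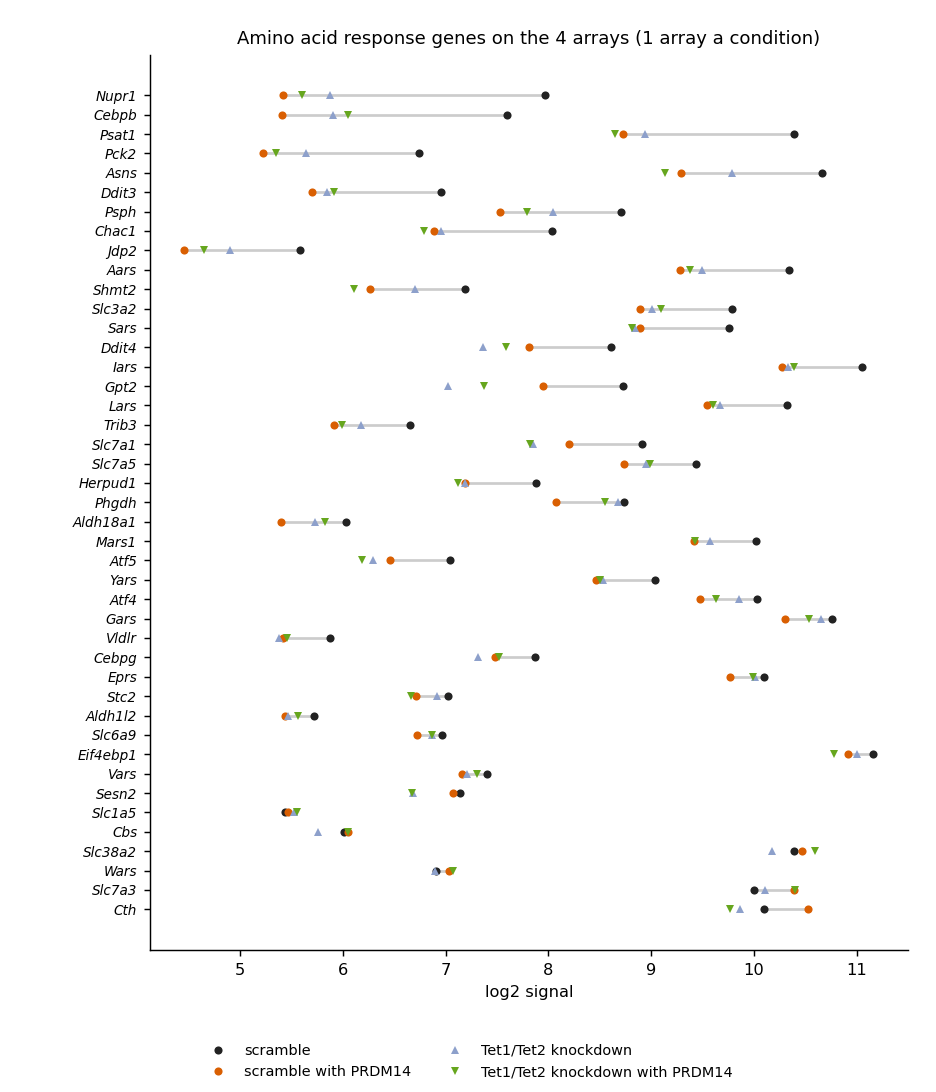
Log2 signal of the 43 ATF4 programme genes past the filter on the 4 arrays, 1 array a condition, ordered by the difference in scramble cells, with a grey line joining the 2 scramble arrays. For 37 genes the black point of the scramble array is the highest of the 4, and for Nupr1 it lies at 7.96 against 5.41 to 5.87 on the other arrays.

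Genes of the unfolded protein response had a median on the opposite side. This response raises folding capacity in the endoplasmic reticulum through the sensors ATF6, IRE1 and PERK, of which PERK is also a route to ATF4. Of 21 members past the filter, 16 were above 0, 5 were at least 1.5-fold higher, 1 was 2-fold higher and 1 was 1.5-fold lower, with a median of 0.40. Second probe sets, available for 13 members, had a median of 0.16, with 7 above 0 and 6 below.

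Hspa5, the chaperone BiP, read 9.48 without and 10.62 with PRDM14, and its second probe set differed by 1.23. The disulfide isomerase Pdia4 read 7.16 and 8.03, the secreted factor Manf read 8.89 and 9.71, and the lectin chaperone Calr read 9.76 and 10.49. Xbp1, the transcription factor spliced by IRE1, read 8.55 and 9.11. The sensors themselves were near 0, with Ern1 (IRE1) at 0.19, Eif2ak3 (PERK) at −0.11 and Atf6 at −0.19. Herpud1, a degradation factor that is also an ATF4 target and stands on both lists, read 7.88 and 7.18. Thus the chaperones named here and most genes of the ATF4 list lay on opposite sides on their probe sets of highest signal. The scramble array was the lowest of 4 in 16 of the 21 members (76.2%), and the knockdown pair had a median of 0.01. The array labelled scramble with PRDM14 was the highest in 12 (57.1%), against 26.3% of all genes.

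Cholesterol synthesis genes were higher with PRDM14 throughout. The pathway runs from acetyl units through the mevalonate steps to sterols and is governed by SREBP2 and its escort SCAP. All 18 members past the filter were above 0, with a median of 0.37, and 0.35 over the 20 members in the table with no filter. Of the 18, 5 were at least 1.5-fold higher and 1 was 2-fold higher.

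Idi1, which isomerises the isoprenoid building block, read 7.71 without and 9.14 with PRDM14, 2.70-fold higher, and 7.35 and 8.90 on its second probe set. Msmo1, a sterol demethylase component, read 7.34 and 8.29, and Cyp51, which removes a methyl group from lanosterol, read 6.04 and 6.83. Insig1, the retention protein for SCAP and itself an SREBP target, read 6.07 and 6.81, and Sqle, the squalene epoxidase, read 7.39 and 7.84. Srebf2, which encodes SREBP2, differed by 0.05. The neighbouring fatty acid programme was near 0, with a median of −0.06, and its members Elovl6 and Fads1 differed by −0.59 and −0.56 and Acsl4 by 0.80. The scramble array read lowest of 4 in 16 of the 18 cholesterol genes (88.9%), and the array labelled scramble with PRDM14 read highest in 11 (61.1%). The knockdown pair had a median of 0.04, with Idi1 at 0.34 and Cyp51 at 0.34. The reductase and the LDL receptor of the pathway were not analysed here.

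**Figure D3:**
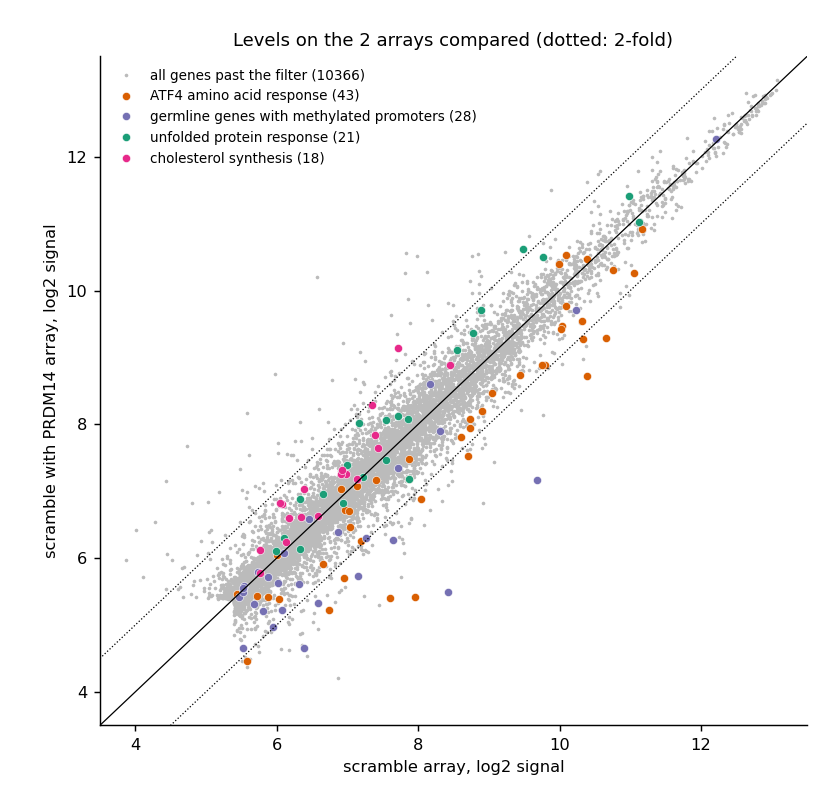
Log2 signal of each gene past the filter on the scramble array (horizontal) and on the array labelled scramble with PRDM14 (vertical), with the line of equal signal and dotted 2-fold lines. Of the coloured programmes, 37 of 43 ATF4 genes and 22 of 28 germline genes lie below the line, and all 18 cholesterol genes and 16 of 21 unfolded protein response genes lie above it.

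Germline genes were lower as well. The listed genes carry promoter methylation in somatic cells. They act in meiosis and in germ cell RNA control, and DNA methylation together with E2F6 and MGA complexes is known to keep them silent outside the germ line. The filter was passed by 28 of the 49 members measured. Among these 22 were below 0, 12 were at least 1.5-fold lower and 6 at least 2-fold lower, and 0 were 1.5-fold higher. The median was −0.44, but −0.15 over all 49 in the table with no filter. Members such as Stag3, Hormad1, Meioc and Mael passed the filter through the scramble array alone, so the share below 0 does not measure the whole programme.

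Meiosis genes were below 0 in 12 of 13 members past the filter, with a median of −0.60, and −0.41 with low values raised to the filter. Those that passed through the scramble array alone are below 0 by that choice. Sycp3, a lateral element protein of the synaptonemal complex, read 8.42 without and 5.50 with PRDM14, 7.58-fold lower. It read 6.43 and 7.36 in the knockdown pair, where the difference was 0.93 and thus in the other direction. Stag3, a meiotic cohesin subunit, read 6.39 and 4.66. Meioc, which maintains meiotic prophase, read 5.95 and 4.97, and Hormad1, a chromosome axis protein, read 5.53 and 4.66. The central element gene Syce1 differed by −0.71 and Mei4, needed for meiotic breaks, by −0.60.

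Genes of germ cell RNA regulation were below 0 in 10 of 14, with a median of −0.38. Ddx4, the germ cell helicase VASA, read 7.14 and 5.73, and Dazl, an RNA-binding translation regulator, read 6.58 and 5.33. Dmrt1, a transcription factor of the gonad, read 7.65 and 6.27. Dppa3, described below, is counted here as well. The piRNA pathway members did not move together: Tdrd12 differed by −0.96 and Mael by −0.85, but Tdrd9, Mov10l1 and Gtsf1 lay between 0.03 and 0.13. The scramble array was the highest of 4 in 15 of the 28 genes (53.6%) and the array labelled scramble with PRDM14 was the lowest in 14.

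Promoters of 3 of the lower germline genes are printed because an E-box, CACGTG, which MYC, MAX and MGA proteins are known to bind, was frequent in this set. It was found in 10 of 28 promoters of 24 programme genes (35.7%), against 7.15% of all promoters and 10.1% of those of genes past the filter. It was also found in 21 of 110 promoters of the 2-fold lower genes and in 11 of 114 of the 2-fold higher genes. The promoters of Nupr1 and Aars printed above hold it too, in lower case, at −225 and −146. It is thus not particular to germline genes. The 3 promoters printed here all hold it, while that of the lower germline gene Dazl had no match. The E-box reads the same on both strands and holds the shorter motif ACGTG. The E-box is in capitals in the 250 bases before the start. It begins at −64 and −43 in Sycp3 (chr10:88459337-88459586, plus strand), at −170 in Stag3 (chr5:138280259-138280508, plus strand) and at −29 in Ddx4 (chr13:112652311-112652560, minus strand). The 3 windows hold 12, 26 and 31 CpG dinucleotides, respectively. Sequences are from RefSeq on GRCm38.p6.
Sycp3: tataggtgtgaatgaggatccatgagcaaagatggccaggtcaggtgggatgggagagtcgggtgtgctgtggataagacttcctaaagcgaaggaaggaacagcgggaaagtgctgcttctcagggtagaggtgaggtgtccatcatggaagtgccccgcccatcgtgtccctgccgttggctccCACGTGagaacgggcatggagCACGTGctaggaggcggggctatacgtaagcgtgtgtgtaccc
Stag3: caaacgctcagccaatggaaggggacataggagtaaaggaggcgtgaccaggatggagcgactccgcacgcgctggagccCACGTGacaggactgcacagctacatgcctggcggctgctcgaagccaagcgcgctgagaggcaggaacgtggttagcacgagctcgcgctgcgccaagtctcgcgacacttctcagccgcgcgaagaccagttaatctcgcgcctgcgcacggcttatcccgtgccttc
Ddx4: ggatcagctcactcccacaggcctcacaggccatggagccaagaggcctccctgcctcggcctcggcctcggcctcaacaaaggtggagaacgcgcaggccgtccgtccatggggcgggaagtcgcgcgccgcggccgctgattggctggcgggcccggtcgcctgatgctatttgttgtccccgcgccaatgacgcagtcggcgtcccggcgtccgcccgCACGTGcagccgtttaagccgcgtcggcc

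The sequence GGTCTCTAA, reported as bound by PRDM14, was searched in the same way. It was present in 1 of 114 promoters of the 2-fold higher genes (0.877%), in 0 of 110 promoters of the 2-fold lower genes and in 0.256% of all promoters. The absence of a match says only that these letters are not in the window.

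Primordial germ cell genes were split. Of 12 past the filter, 7 were below 0, of which 6 were at least 2-fold lower, and 1 was 2-fold higher, with a median of −0.90. That median was −0.01 over the 15 members in the table with no filter, and −0.27 with low values raised to the filter. Dppa3 (Stella), which protects the maternal genome from demethylation, read 9.68 without and 7.17 with PRDM14, and 10.53 and 9.12 in the knockdown pair. Tfap2c, a germ cell specifier, read 7.23 and 5.44, and 7.61 and 6.10 in the knockdown pair. Kit, the receptor for stem cell factor, read 8.10 and 7.02, and 8.12 and 7.07. For these genes both arrays labelled with PRDM14 lay below both arrays without it. Prdm1 (BLIMP1) read 6.73 and 5.72 in scramble cells but 5.86 and 5.82 in knockdown cells. Ifitm3, a membrane protein of early germ cells, read 7.81 and 10.26, and 8.95 and 8.27. Of 4 Rhox homeobox genes past the filter 2 were 2-fold lower, Rhox6 at 5.59 and 4.37 and Rhox9 at 5.75 and 4.59, with 6.72 and 4.77, and 6.91 and 4.87, in the knockdown pair. Both are also counted among the 6 lower genes of the primordial germ cell list. With low values raised to the filter their differences in scramble cells were −0.19 and −0.36.

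Genes of the 2-cell-like state, a rare condition of cultured stem cells that resembles the early embryo, were mostly below the filter. Of 10 members measured, 4 passed it, 3 below 0 and 1 above, and 2 were at least 2-fold lower. Their median was −1.35, and −0.37 over the 10 with no filter. Gm20767, which passed through the scramble array alone, read 6.87 and 4.21, and AF067061 read 8.92 and 6.82. Zscan4a, of the Zscan4 cluster, stands outside the list and was picked out after its values were seen: it read 6.92 and 5.53. Both knockdown arrays lay near the lower value for all of them, with AF067061 at 7.10 and 6.64 and Zscan4a at 5.70 and 5.61. These genes belong to multicopy families, and a probe set may not tell the copies apart.

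Cell cycle genes differed by phase. Genes of G2 and mitosis were below 0 in 25 of 31 members, with a median of −0.27, although 0 were 2-fold apart, 4 were at least 1.5-fold lower and 1 was 1.5-fold higher. Cenpa, the centromeric histone, read 9.89 without and 9.08 with PRDM14. The proliferation antigen Mki67 read 8.79 and 8.01, the mitotic kinase Aurka read 9.08 and 8.34, and the kinetochore protein Cenpf read 8.87 and 8.18. Kif23, a motor of cytokinesis, read 5.82 and 6.65 in the other direction. The G2 and mitosis set was highest on the scramble array in 22 of 31 members (71.0%). The knockdown pair had a median of −0.12, with 23 of 31 below 0.

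The G1 and S phase set was balanced, with 22 members above 0 and 23 below and a median of −0.02. Its cyclins, kinases and inhibitors were above 0 in 9 of 23 members, with a median of −0.03, and its replication genes in 13 of 22, with a median of 0.19. The larger differences were in single cyclins. Ccnd2 (cyclin D2) read 6.24 and 7.55 and its second probe set read 5.25 and 7.68, Ccne2 (cyclin E2) read 6.06 and 7.16, and Ccnd1 (cyclin D1) read 9.43 and 10.24. The inhibitors Cdkn2a, Cdkn1a and Cdkn1b differed by −0.69, −0.65 and −0.58. Replication genes such as Mcm2 to Mcm7 lay between −0.31 and 0.22. In the knockdown pair Ccnd2 differed by −0.58 and Ccne2 by 0.61, so that these genes did not share a direction there.

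Signals that feed the cyclins were followed by role. FGF and ERK signalling drives stem cells out of the naive state, and its feedback inhibitors and ETS factors are its known readouts. Of 21 members past the filter, 9 passed 1.5-fold upward and 2 downward, with a median of 0.24. It was 0.047 over the 26 in the table with no filter and 0.49 with the mean of probe sets. The scramble array read lowest in 11 of the 21. Among ligands, Fgf15 read 6.03 without and 7.73 with PRDM14, and Fgf4 read 8.52 and 9.44. Among targets, Myc read 6.72 and 8.04 and the ETS factor Etv1 differed by 0.96, while Etv5 read 10.45 and 10.46. Phlda1, another target, read 4.44 and 5.54, barely past the filter. Feedback inhibitors went both ways, with Spry4 at 8.14 and 9.78, Spry2 at 8.83 and 9.58, and the ERK phosphatase Dusp4 at 7.45 and 5.30. Spry4 differed by 0.23 on its second probe set.

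In the BMP programme the larger differences were in Id genes. BMP signals act through SMAD1 and SMAD5 to switch on Id genes, whose products block basic helix-loop-helix factors. Id1 read 6.57 and 10.20, Id2 read 7.98 and 10.52, and Id3 read 7.66 and 8.66, just under 2-fold. The ligand Bmp4 read 6.62 and 7.27, and the 5 receptors and transducers past the filter, among them Smad1 at −0.24 and Smad5 at −0.27, lay between −0.27 and 0.11. The median was 0.19 over 7 targets, of which Id4, Msx2, Msx1 and Hey1 differed by 0.19, 0.16, 0.10 and −0.29, and 0.26 over 4 ligands. The knockdown array already read 8.85 for Id1 and 9.82 for Id2, and the knockdown array labelled with PRDM14 read 9.79 and 10.17. The scramble array was thus the lowest for both. WNT (median 0.03), Notch (−0.07), retinoic acid (0.01) and LIF and STAT3 (0.08) programmes had 0 members at 2-fold.

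Pluripotency lists leaned the same way in scramble cells, while in knockdown cells the naive and primed lists leaned opposite ways. Of 14 naive genes past the filter, 10 were above 0, with a median of 0.11, and Tbx3 at 0.69, Nanog at 0.52 and Klf4 at 0.44 among the larger differences, while Esrrb differed by −0.51 and Dppa3, also on this list, by −2.50. In the knockdown pair 12 of the 14 were below 0, with a median of −0.25, and Nanog and Klf4 differed there by −0.39 and −0.61. Core pluripotency genes were above 0 in 9 of 14, with a median of 0.12. In the knockdown pair 7 of them were above 0 and 7 below, with a median of 0.04. Of 15 primed epiblast genes past the filter, 11 were above 0 and 5 at least 2-fold higher, with a median of 0.47, and 0.37 over the 21 in the table with no filter. Of the 5, Cdh2, Sox11 and Pou3f1 were under the filter on the scramble array and passed through the other array alone. Pou3f1, a POU factor of the epiblast, read 5.09 and 6.24, and its second probe set differed by −0.04. Foxd3, a forkhead transcription factor, read 6.15 and 7.56. Sox11, a neural SOX factor, read 5.03 and 6.84, and 4.63 and 6.83 in the knockdown pair. Otx2, a driver of the epiblast state, read 7.60 and 8.25. In the knockdown pair 14 of the 15 primed genes were above 0, with a median of 0.63.

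**Figure D4:**
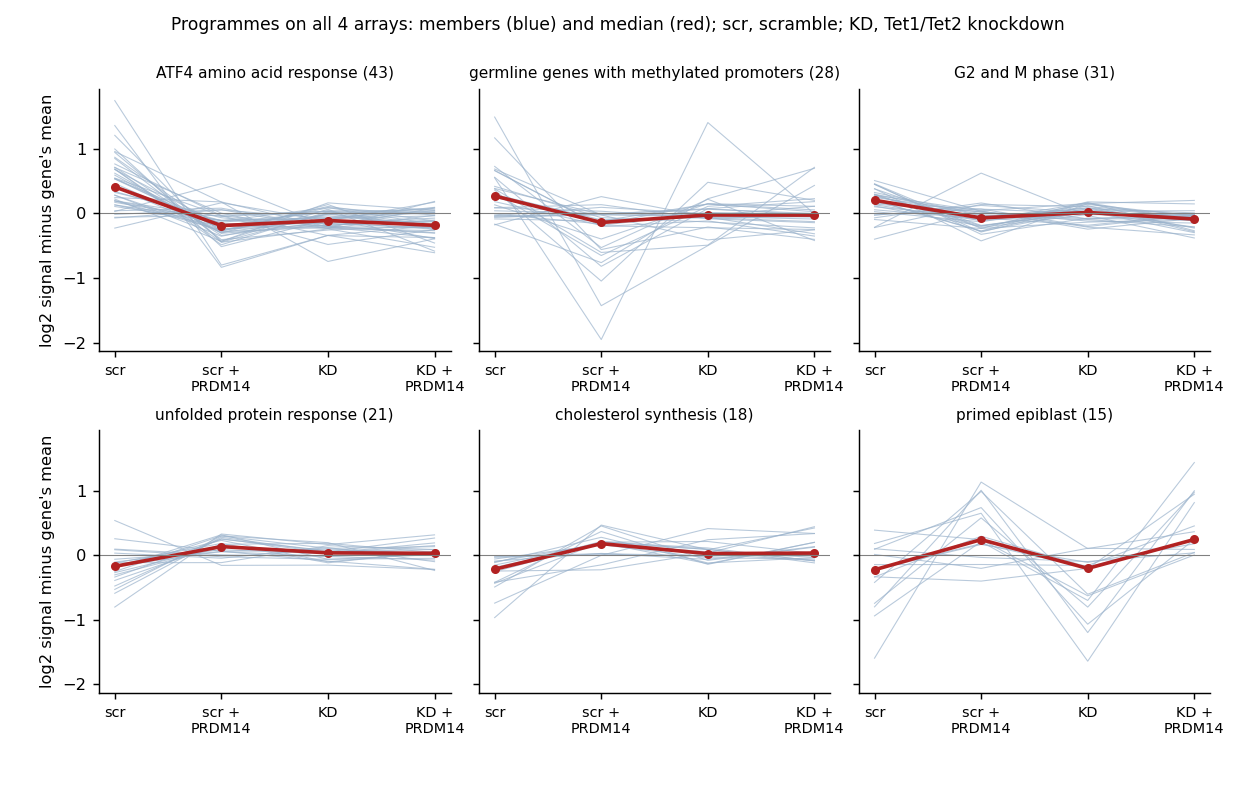
Log2 signal minus each gene's mean over the 4 arrays for the members past the filter of 6 programmes (blue lines) with the median (red); scr is scramble and KD is Tet1/Tet2 knockdown. In the ATF4, unfolded protein response and cholesterol panels the scramble array departs from the other 3, in the G2 and M phase panel the knockdown array lies between the 2 scramble arrays, and the primed epiblast median is high on both arrays labelled with PRDM14.

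DNA methylation genes, whose balance PRDM14 is known for, went both ways within each role except the silencing partners. The de novo enzyme Dnmt3b read 8.89 and 10.21 and its cofactor Dnmt3l read 9.76 and 10.72, while the other de novo enzyme, Dnmt3a, differed by −0.35. Dnmt3b also read 8.83 and 10.61 in the knockdown pair. Its direction is opposite to the known holding down of de novo enzymes named above, and the reason was not tested. Among maintenance genes Uhrf1 read 8.83 and 9.73, but Uhrf2 differed by −0.70 and Dnmt1 by −0.17. The silencing partners Ehmt2, Hells, Setdb1 and Trim28 differed by 0.66, 0.49, 0.41 and 0.35, and all 5 partners past the filter were above 0. Methyl readers lay between −0.58 and 0.23. In base excision repair, Apex1, the abasic site nuclease, read 7.61 and 8.79 and Gadd45a, a stress protein linked to demethylation, read 7.09 and 8.29. Their knockdown pairs read 8.49 and 8.37 for Apex1, and 7.89 and 7.91 for Gadd45a. The glycosylases Tdg, Ung and Mbd4 differed by −0.01, −0.11 and −0.02.

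Purine and pyrimidine salvage held 3 of the larger differences. Salvage enzymes return bases and nucleosides to the nucleotide pool. Upp1, a uridine phosphorylase, read 8.13 without and 10.28 with PRDM14, 4.42-fold higher. The purine nucleoside phosphorylases Pnp and Pnp2 read 8.84 and 10.54, and 7.18 and 9.08. Pnp, Pnp2 and Apex1 are all annotated to chromosome 14, and Pnp and Pnp2 are close relatives whose transcripts a probe set may not tell apart. The salvage genes had a median of 0.38 over 16 members and the synthesis genes 0.03 over 18, in which Prps2, which makes the ribose donor, read 6.35 and 7.75 but differed by 0.44 on its second probe set. In the knockdown pair Upp1 differed by −0.42 and Pnp2 by 0.17.

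Glucose handling was split in a similar way between uptake and brake. The glucose transporter Slc2a1 read 8.86 and 10.30, hexokinase Hk2 read 8.87 and 9.96 and triosephosphate isomerase Tpi1 read 9.57 and 10.81. The arrestins Txnip and Arrdc4, glucose-induced inhibitors of glucose uptake, read 9.45 and 8.22, and 7.30 and 6.10. Over the 20 glycolysis members the median was 0.16, and enzymes between these points such as Pgk1, Pkm and Ldha differed by 0.15, 0.18 and 0.06. Txnip and Arrdc4 read lower still on the knockdown arrays, at 7.44 and 7.38 for Txnip and 5.85 and 5.74 for Arrdc4. The hypoxia programme had a median of 0.19, with Kdm3a at 0.79 and Vegfa at −0.13, or −1.29 on the second Vegfa probe set.

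Antioxidant genes under NRF2, a factor released by oxidative or electrophilic stress, were above 0 in 19 of 24 members, with a median of 0.29, and 1.5-fold was passed upward by 6 and downward by 2. The quinone reductase Nqo1 read 5.81 and 7.12 and the carbonyl reductase Cbr3 read 6.32 and 8.03. Hmox1, heme oxygenase, differed by 0.77, the pentose phosphate enzyme Pgd by 0.76 and the glutathione synthesis subunit Gclm by 0.59. Gstp1, a glutathione transferase, differed by −0.87. In the knockdown pair Cbr3 differed by 2.02 and Nqo1 by −0.40. The scramble array read lowest in 15 of the 24 members (62.5%).

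Matrix and adhesion genes gave a mixed picture. Among 19 basement membrane genes past the filter 13 were above 0, 5 at least 1.5-fold higher and 0 lower at that size, with a median of 0.33. P3h4, which takes part in collagen modification, read 5.97 without and 8.75 with PRDM14, and the matrix glycoprotein Sparc read 8.42 and 9.30. The collagen IV chains Col4a1 and Col4a2 read 5.66 and 6.41, and 5.35 and 5.84, and laminin Lama1 read 4.61 and 5.54. All 10 primitive endoderm markers past the filter were above 0, with a median of 0.13, and the 4 largest were these matrix genes, Col4a1, Col4a2, Sparc and Lama1. The defining endoderm factors were below the filter (Gata4, Sox17) or barely past it (Gata6, 5.28 and 5.45).

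Vimentin (Vim) read 7.83 and 10.57 and N-cadherin (Cdh2) read 4.43 and 7.16. In the knockdown pair Vim read 10.20 and 9.48 and Cdh2 read 6.13 and 6.39, so the scramble array was the lowest for both. Of the 8 mesenchymal genes past the filter, Vim and Cdh2 were the only 2 to pass 2-fold, and the scramble array read lowest in 4 of the 8. That set had a median of 0.21, with 6 members above 0 and 2 below. In it, 3 members passed 1.5-fold upward and 1 downward, at −0.62. Only 7 of 21 fibroblast and feeder markers in the table passed the filter, and their median was 0.03. The neurofilament gene Nefl read 5.58 and 8.17, and differed by 0.71 on its second probe set. In the knockdown pair Nefl read 7.66 and 8.39. Cdh2 was below the filter on the scramble array, and its second probe set differed by 0.83. Of 19 epithelial junction genes, 0 were 2-fold apart, and E-cadherin (Cdh1) differed by 0.09, while P-cadherin (Cdh3), on the trophectoderm list, read 6.55 and 5.43. Actin and SRF target genes had 0 members at 1.5-fold, with a median of 0.01. In the guidance list, ephrin Efnb2 read 6.78 and 8.66, and Epha4, Sema3e and Ntn1 differed by 0.69, 0.83 and 0.87. In the YAP and TEAD list the coactivator Wwtr1 (TAZ) read 6.82 and 7.93 and its target Ccn2 read 8.19 and 9.56, while Yap1 differed by 0.28.

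Among chromatin genes, the Polycomb list was centred on 0.00 over 24 members, and 2 of them reached 1.5-fold. These were Epop, an elongin-binding subunit of the complex, at 4.01 and 6.42, and Kdm2b, which brings a variant complex to CpG islands, at 8.51 and 9.48. Epop was below the filter on the scramble array and differed by 1.02 with values raised to the filter. The histone variant gene Macroh2a1, which marks silent chromatin, read 9.77 and 8.14, and 9.74 and 9.05 in the knockdown pair. Among maternally expressed imprinted genes, 10 of 11 were above 0, with a median of 0.24. The noncoding RNAs Rian, Meg3 and Mirg of the Dlk1-Dio3 region differed by 1.41, 0.86 and 0.55 in scramble cells and by 1.51, 0.98 and 0.37 in knockdown cells. Their second probe sets in scramble cells gave 1.34 for Rian and 1.46 for Meg3.

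Some programmes were near the centre of all genes. Cytosolic ribosomal protein genes had a median of −0.06, with 55 of 69 below 0 and 2 at least 1.5-fold lower, and the scramble array read highest in 48 of them (69.6%). Respiratory chain genes had a median of 0.04 over 83 members, apoptosis genes 0.00 over 17, heat shock genes 0.06 over 21 (with Hspb1 at 10.58 and 11.79) and housekeeping genes 0.07 over 18. Autophagy and lysosome genes had a median of −0.04, with the protease Ctsl at 10.85 and 9.75. The median of p53 targets was −0.06. Its member Perp, a desmosomal protein, read 6.26 and 7.74, while Cdkn1a differed by −0.65. The efflux pumps Abcb1a and Abcb1b differed by 1.03 and 1.28 in a list with a median of −0.08. Second probe sets gave 1.30 for Abcb1a and 0.03 for Abcb1b.

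Genes on no list made up 73 of the higher and 75 of the lower calls. The higher ones were led by Coch, a secreted protein of the inner ear, at 4.74 and 7.67, the hormone precursor Trh at 6.93 and 9.21, and the protease inhibitor Spink1 at 4.28 and 6.54. Colec12, Sgms2, Car2 (carbonic anhydrase), Gja1 (connexin 43), 1700097N02Rik, Pcyt1b, Bmt2, F2r and Hopx followed, with differences from 2.11 down to 1.69. Gja1 read 7.86 and 9.87, and 8.98 and 9.76 on the knockdown arrays. Coch, Spink1, Colec12, Sgms2 and Bmt2 were below the filter on the scramble array. Sgms2 makes sphingomyelin, and Pcyt1b supplies an intermediate of phosphatidylcholine.

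The lower genes on no list were led by Coq2, which builds the coenzyme Q ring, at 7.76 and 5.72. Prkar2b, a regulatory subunit of protein kinase A, read 6.43 and 4.54, and Gkap1, an anchoring protein for cyclic GMP kinase, read 7.79 and 6.08. Phkb, Retreg1, Plac8, Ephx2, Scamp1, Xpa, Zc3hav1, Lrrc8d and Dzip3 followed, from −1.65 to −1.48. Plac8 read 9.07 and 7.44 in scramble cells and 9.29 and 9.76 in knockdown cells, so that the scramble array labelled with PRDM14 was the one apart. Ephx2, an epoxide hydrolase, read 8.08 and 6.49, and 7.02 and 6.15. For Coq2 and Ephx2 both arrays labelled with PRDM14 lay below their partners.

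Set side by side with the knockdown pair, the calls were largely of the same sign but smaller there. The genes were chosen by their difference in the scramble pair, so smaller differences in another pair come with that choice. Of all 10366 genes past the filter, 5118 were above 0 in knockdown cells and 5239 below. Of the 113 higher genes, 79 were above 0 in knockdown cells, 29 passed 1.5-fold and 10 were called higher. Of all 10311 genes tested in the knockdown pair, 151 passed 1.5-fold upward (1.46%) and 37 passed 2-fold (0.359%). Of the 104 lower genes, 83 were below 0, 24 passed 1.5-fold and 7 were called lower. Over all genes of that pair, 139 passed 1.5-fold downward (1.35%) and 28 passed 2-fold (0.272%). The 10 shared higher genes were Trh, Efnb2, Sox11, Cbr3, Rian, Hmgxb4, Trim2, Dnmt3b, Pou3f1 and Mapkapk3, and the 7 shared lower genes were Dppa3, Tfap2c, Urgcp, Rhox6, Rhox9, Kit and Afap1. ATF4, unfolded protein response and cholesterol genes are not among them, but these lists held only 10, 1 and 1 of the calls. With so few calls shared, this absence says nothing particular about these lists. Across 10158 genes past the filter in both pairs, the 2 differences had a Pearson r of 0.233 across genes, which share arrays and normalization within a pair and are not independent replicates. Their SD was 0.347 in scramble cells and 0.221 in knockdown cells. Whether the 2 pairs differ was not tested.

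**Figure D5:**
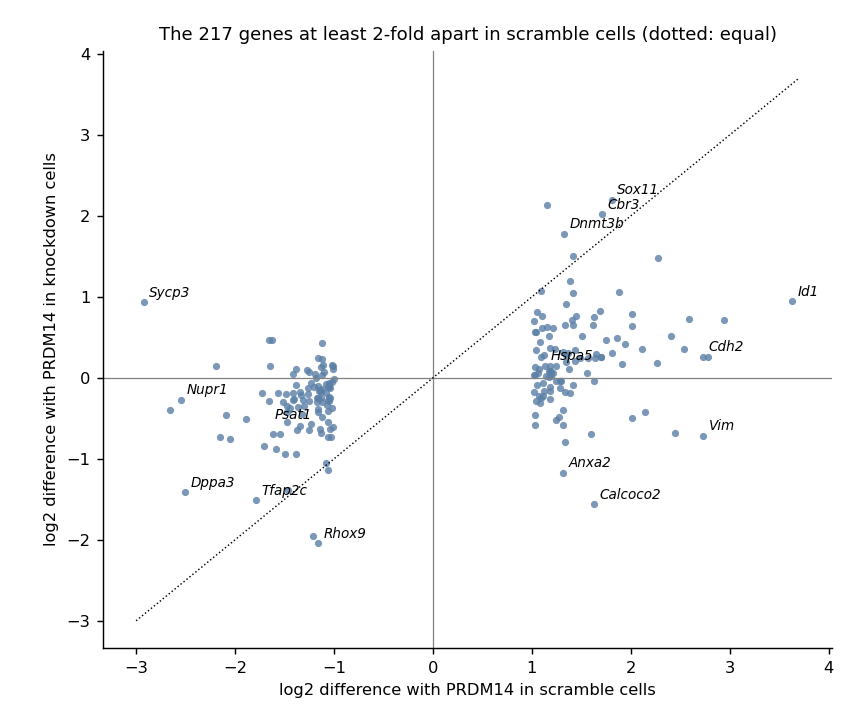
Log2 difference with PRDM14 in scramble cells (horizontal) against the same difference in Tet1/Tet2 knockdown cells (vertical) for the genes at least 2-fold apart in scramble cells, with a dotted line of equal differences. Sox11, Cbr3, Dnmt3b, Rhox9 and Tfap2c are past 2-fold the same way on both axes, Nupr1, Psat1 and Hspa5 lie near 0 on the vertical axis, and Sycp3, Anxa2 and Calcoco2 have opposite signs.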

How the data were processed

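The deposited values are log2 signals of an Affymetrix array, normalized by the authors with Affymetrix Expression Console per the submitters' processing notes. For software version, summary method and build the entry is: not given in the sources used here. Of 45141 probe sets 28898 carried 1 gene symbol, 551 several and 15588 none, and 104 were controls. Nothing was renormalized. The probe set of highest average signal stood for each gene, which was called where the 2 arrays differed at least 2-fold and the higher reached 5.40. With 1 array a condition no test was made. Lists were described by counts and medians beside those of all genes. The genes and lists were chosen with earlier results of these data known; the rule for named genes took list members past 2-fold, up to 6 members of largest difference per list and the 12 largest differences each way on no list, and any other member was named after its values were seen. Alternatives were other fold thresholds, filters and probe set rules, and values raised to the filter. The calling steps were run on simulated arrays with planted changes larger than 2-fold, in genes well above the filter. That run checks the steps only and does not gauge calls near 2-fold or near the filter. Promoters came from RefSeq's GRCm38.p6 table. Python 3.11.15, pandas 2.3.3 and numpy 2.4.6 were used.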

Additional observations from a re-analysis of the deposited data

Results flagged for a closer look

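Anxa2, a calcium-dependent membrane-binding protein, differed by 1.31 on the log2 scale in scramble cells and by −1.17 in Tet1/Tet2 knockdown cells. Calcoco2, an autophagy receptor, differed by 1.63 and −1.56. Both genes were singled out because they were at least 2-fold apart in opposite directions in the 2 pairs, and with 1 array a condition the difference between the pairs was not tested. Anxa2 read 7.18, 8.49, 8.61 and 7.44, and Calcoco2 read 7.88, 9.51, 9.11 and 7.55, in the order scramble without and with PRDM14, then knockdown without and with it.

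Probe sets with no single gene name were not used in the comparison. Among the 5401 past the filter, 2-fold was passed upward by 45 and downward by 53, which is 1.81% in all, with differences from −2.53 to 3.27.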

How the results depend on the processing

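Of the named genes, none that was called at 2-fold changed direction under the filters, raised values, mean of probe sets or centring. Several list medians close to 0, such as those of the Nodal, fatty acid, G1 and S phase and apoptosis lists, changed sign under at least 1 of these settings. The counts of 113 higher and 104 lower genes became 444 and 405 at 1.5-fold, 34 and 18 at 3-fold, and 40 and 20 with second-brightest probe sets. On their second probe sets the called genes Dnajb6, Zfp947, Hmgxb4, Pou3f1, Etl4, Zc3hav1 and Ahnak had the opposite sign, at 0.46, 0.20, −0.09, −0.04, −0.06, 0.0043 and −0.0012. Of 306 list values 24 moved by more than the pooled SD of 0.219, as did 82 of 1491 values of named genes; smaller moves, such as that of FGF and ERK to 0.047 with no filter, are not counted. With a filter at 6.82 the medians were 0.98 for primed epiblast, −0.32 for primordial germ cell, −2.10 for 2-cell-like, −0.36 for trophectoderm, 0.87 for neuroectoderm and 0.59 for Eph and ephrin genes. With no filter they were −0.15 for germline, −0.011 for primordial germ cell, −0.37 for 2-cell-like and 0.011 for neuroectoderm genes. With values raised to the filter they were −0.27 for primordial germ cell, −0.27 for Rhox and −1.03 for 2-cell-like genes. With the mean of probe sets they were 0.49 for FGF and ERK, 0.47 for primitive endoderm and 0.87 for neuroectoderm genes. With the second-brightest probe set they were 0.20 for Nodal, −0.41 for primordial germ cell, 0.71 for intermediate filament, 1.34 for maternally expressed imprinted, −0.35 for ATF4, 0.16 for unfolded protein response, 0.17 for fatty acid and 0.52 for Eph and ephrin genes. The cause of these moves was not tested. No paired analysis was possible because each condition has 1 array and the labels carry no replicate numbers, and for the same reason no array could be left out. Signals near background limit genes whose lower array was under 5.40.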
